A study of Rattus norvegicus with 25 samples.

Results

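The genes described here are 34 genes of cell division, from the cyclins that start the cycle to the proteins of the mitotic spindle, taken by name from the 34322 genes of a count table of rat hippocampus. All 34 were listed, and all 34 were among the 21064 genes that passed the filter on low counts. None of the 34 differed between groups at an edgeR adjusted p of 0.05 or less in any of 12 comparisons. Of all genes tested, 0% to 5.92% did. DESeq2 called 4 of 34 in 1 comparison, where it called 11.5% of all genes, and 3 of 34 in another, where it called 6.91%. The members nearest to that threshold in the CCI average over sham (the mean of the 4 injured groups, weighted alike, against the sham group) were the replicative helicase subunit Mcm2, at a log2 fold change of 0.61 ± 0.19 (SE), and the mitotic cyclin Ccnb1, at -0.72 ± 0.24. The Ccnb1 value rested on 1 sham library, while the Mcm2 value did not.

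RNA came from the hippocampus of male Sprague-Dawley rats, 6 to 7 weeks old, in 5 groups of 5 libraries. Vehicle-sham animals had a sham operation and vehicle. Vehicle-CCI animals had vehicle and controlled cortical impact (CCI), a blow by a piston to the exposed cortex that lies over the hippocampus. TD-CCI, TCF-CCI and TNF-CCI name the impact with a supplement of thymus, thymus cytosolic factor or thymus nuclear factor; TNF is not the cytokine here, and the treatment field of TCF-CCI names the factor alone. No group had a supplement without impact, so a supplement group over sham holds both changes, which cannot be told apart. The sources used here do not give the dose, the time since the impact or the hemisphere. Nor do the labels say whether each library was its own animal, so each p measures only how far these libraries spread, which may be technical.

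Cells enter division when D-type cyclins with Cdk4 release the E2F factors, which switch on the genes for DNA replication. Cyclin E with Cdk2 starts S phase, in which the MCM helicase opens the DNA, and cyclins A and B with Cdk1 then drive mitosis. Most cells of the adult hippocampus do not divide; progenitors of the dentate gyrus and glial precursors do, and microglia and astrocytes can after injury. In tissue RNA, fewer cells of a type and less RNA per cell cannot be told apart, and an increase in dividing cells cannot be told apart from more transcript per cell.

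Sequencing depth was 27.3 to 44.9 M counts a library (median 32.8 M, where M stands for 1e6), and over all libraries a member had between 435 counts (Ube2c) and 38654 (Cdk4). Levels are CPM, counts per M counts, scaled by TMM. Gene positions are those of the count table, on mRatBN7.2. Vehicle-sham 2 stood apart from the other libraries: 25.6% of its counts fell on the 2 mitochondrial ribosomal RNA genes, against 2.18% to 17.3% in the others. Vehicle-sham 3 was next, at 17.3%, and the remaining libraries reached 10.9% at most. The TMM factors of Vehicle-sham 2 and 3, 0.645 and 0.805, were the lowest of the 25. Both are sham libraries, and a fit without both is among the alternatives. Vehicle-sham 2 was the highest of the 25 libraries in 13 of the 34 members and the lowest in 7. Over all genes tested it was the highest in 21.8% and the lowest in 31.4%. For each member the CCI average over sham is therefore given with and without it. Markers of hippocampal neurons were present in every library, with 8 markers summing to between 1340 and 3470 CPM. The choroid plexus list, a tissue that touches the hippocampus, ran from 5.79 to 541 CPM except in 1 Vehicle-CCI library, at 3920 CPM.

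Promoters of 7 members are shown because the results turn on them or because they are the usual markers of dividing cells. They are the 250 bases before the transcription start in RefSeq, build GRCr8, read 5′ to 3′ in the direction of the gene. Capitals mark 3 motifs known from cell cycle promoters, searched on both strands: the CCAAT box (CCAAT), E2F sites (TTTCCCGC, TTTGGCGC, TTTGCCGC or TTTCGCGC) and the cell cycle homology region, CHR (TTTGAA or TTCGAA). Mcm2 lies at chr4:122918095-122918344 (minus strand), Mcm6 at chr13:42404353-42404602 (minus strand), Cdk1 at chr20:19265043-19265292 (plus strand), Ccnb1 at chr2:33655226-33655475 (minus strand), Cenpf at chr13:103760887-103761136 (minus strand), Top2a at chr10:84473094-84473343 (minus strand) and Mki67 at chr1:199952594-199952843 (minus strand).
Mcm2: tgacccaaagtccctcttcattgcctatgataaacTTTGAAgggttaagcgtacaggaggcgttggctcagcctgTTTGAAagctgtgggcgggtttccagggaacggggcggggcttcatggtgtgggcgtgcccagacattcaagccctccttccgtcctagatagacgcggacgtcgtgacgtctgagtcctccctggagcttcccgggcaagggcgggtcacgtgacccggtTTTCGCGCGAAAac
Mcm6: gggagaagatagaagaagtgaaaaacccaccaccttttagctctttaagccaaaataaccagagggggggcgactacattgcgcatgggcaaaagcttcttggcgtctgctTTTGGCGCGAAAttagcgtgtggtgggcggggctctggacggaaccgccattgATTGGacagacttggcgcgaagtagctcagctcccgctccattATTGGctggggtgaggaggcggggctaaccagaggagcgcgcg
Cdk1: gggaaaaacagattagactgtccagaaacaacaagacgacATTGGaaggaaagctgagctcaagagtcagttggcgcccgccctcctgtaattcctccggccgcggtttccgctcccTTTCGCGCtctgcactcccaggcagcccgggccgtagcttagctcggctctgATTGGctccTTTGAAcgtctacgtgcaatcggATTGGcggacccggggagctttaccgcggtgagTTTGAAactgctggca
Ccnb1: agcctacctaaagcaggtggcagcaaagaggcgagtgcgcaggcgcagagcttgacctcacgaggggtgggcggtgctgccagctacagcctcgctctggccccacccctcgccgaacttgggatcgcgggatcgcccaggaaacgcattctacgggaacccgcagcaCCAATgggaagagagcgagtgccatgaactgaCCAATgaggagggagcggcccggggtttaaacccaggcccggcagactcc
Cenpf: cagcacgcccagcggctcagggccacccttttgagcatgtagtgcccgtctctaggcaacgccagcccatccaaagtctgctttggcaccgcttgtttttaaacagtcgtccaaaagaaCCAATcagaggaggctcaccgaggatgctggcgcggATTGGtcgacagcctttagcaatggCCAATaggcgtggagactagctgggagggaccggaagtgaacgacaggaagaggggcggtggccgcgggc
Top2a: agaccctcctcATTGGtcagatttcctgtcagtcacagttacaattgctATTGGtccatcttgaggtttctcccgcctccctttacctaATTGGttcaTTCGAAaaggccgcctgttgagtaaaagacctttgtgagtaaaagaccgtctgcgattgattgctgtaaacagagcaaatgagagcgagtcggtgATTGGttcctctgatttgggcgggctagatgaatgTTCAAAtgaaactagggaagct
Mki67: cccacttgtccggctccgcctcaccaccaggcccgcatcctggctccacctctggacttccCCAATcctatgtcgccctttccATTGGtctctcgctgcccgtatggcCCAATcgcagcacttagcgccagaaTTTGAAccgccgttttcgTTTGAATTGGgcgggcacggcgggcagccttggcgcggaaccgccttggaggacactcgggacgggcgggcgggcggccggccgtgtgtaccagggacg

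The replication genes Mcm2 and Mcm6 carried E2F letters, in Mcm2 as overlapping sites on both strands that began 14 and 10 bases before the start. Cdk1 carried all 3 motifs. Ccnb1 and Cenpf carried CCAAT boxes alone, at 82 and 50 bases before the start in Ccnb1 and at 131, 95 and 70 in Cenpf. Top2a and Mki67 carried CCAAT boxes with CHR letters, and in Mki67 the second CHR overlaps a CCAAT box. RefSeq promoters matched 23 of the 34 members by symbol. Of these 23, 16 held a CCAAT box, against 34.0% of 33465 promoters of the same length. An E2F site was found in 6 of 23 (Cdk1, Mcm2, Mcm5, Mcm6, Mcm7 and Tyms), against 1.73%, and a CHR in 8 of 23, against 17.4%. Both CCAAT and CHR were found in 6 of 23, against 6.31%. These are matches of letters, not tests of binding. Ccna2, Ccnd1, Ccnd2, Ccne2, Mcm4, Rrm2, Aurkb, Tpx2, Ube2c, E2f1 and Foxm1 were not matched.

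Levels between genes were compared per kb of exon. Pcna, the sliding clamp of DNA polymerase, was highest, at a mean of 34.3 CPM per kb over 25 libraries. Cdk4 followed at 25.2 and Ccnd2 at 17.5 CPM per kb. Several genes known for S, G2 and M phase were low: Mki67 at 0.982, Cdk1 at 0.589, Ccnb1 at 0.561, Top2a at 0.473 and Bub1b, the lowest member, at 0.142 CPM per kb. Others of those phases stood higher: Aurkb at 5.32, Aurka at 2.02, Plk1 at 1.98 and Ccna2 at 1.77 CPM per kb. Some replication genes were also low, such as Mcm5 at 0.255 and Rrm2 at 0.581 CPM per kb. Single libraries held as few as 5 counts of Bub1b, 6 of Ube2c and 7 of Cdk1, so counting error adds to the spread of these genes. Aurkb had the widest range, with its highest library 24.5 times its lowest, and Mcm4 the narrowest, at 1.49 times.

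**Figure D1:**
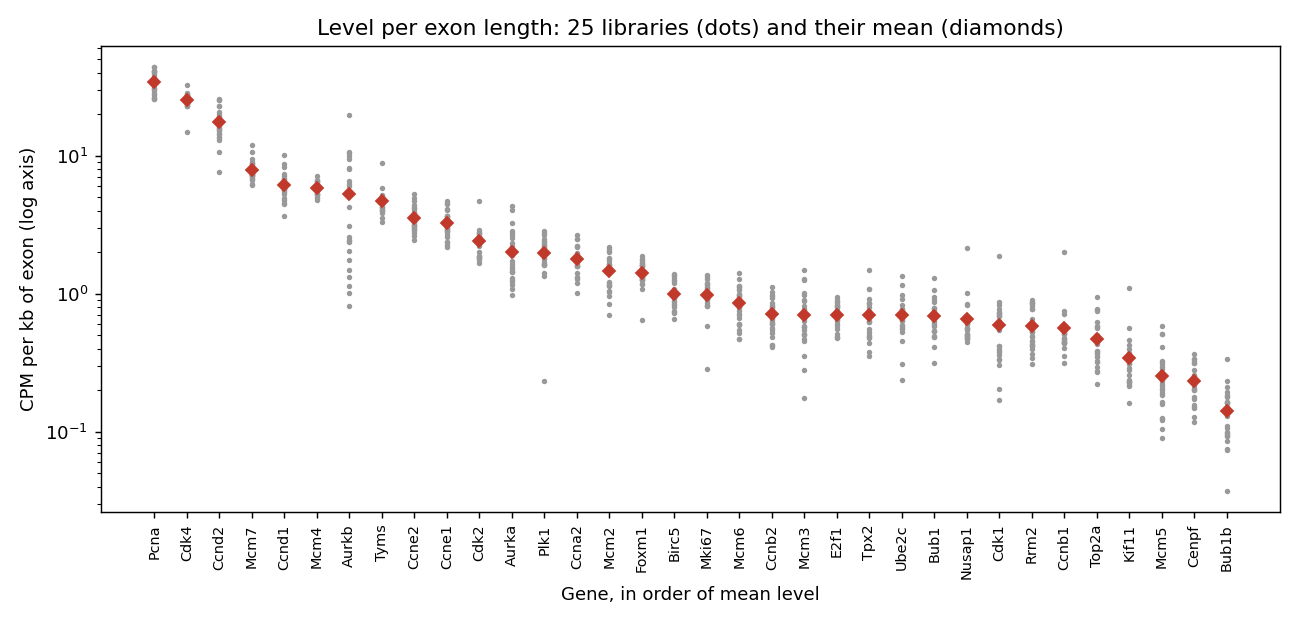
Level of each of the 34 genes per kb of exon (log axis), with 1 grey dot per library and a red diamond at the mean of 25 libraries. Pcna, Cdk4 and Ccnd2 lead, and most genes of S, G2 and M phase lie at or under about 1 CPM per kb.

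None of the 3 G1 genes passed in any comparison, and their CCI averages over sham lay between -0.16 and 0.17 on the log2 scale. Ccnd1 (cyclin D1, chromosome 1, 200089002 to 200098524) receives growth factor signals. In Vehicle-sham Ccnd1 was at 21.8, 39.2, 18.4, 23.1 and 23.6 CPM in libraries 1 to 5, and in Vehicle-CCI at 27.5, 17.6, 19, 34 and 22.9 CPM. TD-CCI had 26.4, 21.1, 22.1, 32.3 and 22.6 CPM, TCF-CCI 22.7, 14.1, 26.4, 24.2 and 21.8 CPM and TNF-CCI 28.4, 20.3, 24.9, 17.2 and 23 CPM. The groups overlapped, and the highest value of all was Vehicle-sham 2. The CCI average over sham was -0.11 ± 0.16 on the log2 scale (edgeR adjusted p = 0.73), and without Vehicle-sham 2 it was 0.14 ± 0.16. Ccnd2 (cyclin D2, chromosome 4, 159966883 to 159989261) is the D cyclin known for neural progenitors. In Vehicle-sham Ccnd2 was at 32.5, 23, 18.4, 25.2 and 35.7 CPM in libraries 1 to 5, and in Vehicle-CCI at 27.1, 10.8, 15.1, 27.3 and 22.3 CPM. TD-CCI had 19.4, 22.2, 29.1, 21.8 and 35.6 CPM, TCF-CCI 20.2, 20.3, 25.8, 28.6 and 19 CPM and TNF-CCI 25.5, 21.2, 36.6, 32.6 and 24.5 CPM. Vehicle-CCI held the 2 lowest values, and every group overlapped every other. Ccnd2 came to -0.16 ± 0.18 (adjusted p = 0.612, edgeR), and to -0.18 ± 0.20 without Vehicle-sham 2. Cdk4, the kinase partner of both, came to 0.17 ± 0.10, from 41.5 ± 8.75 CPM (SD, n = 5) in sham to 46.8 ± 4.08 CPM (SD, n = 20) in CCI, and its low sham value of 26.9 CPM was Vehicle-sham 2. Without that library Cdk4 came to 0.08 ± 0.08.

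At the G1/S step, Ccne1 and Ccne2, the E cyclins, stood at -0.06 ± 0.17 and -0.11 ± 0.15 in the CCI average over sham, and at -0.10 ± 0.19 and -0.19 ± 0.16 without Vehicle-sham 2. Cdk2, their kinase, stood at 0.28 ± 0.18 (0.27 ± 0.19 without that library), with 10 of 20 CCI libraries above every sham library. Of the transcription factors, E2f1, a replication gene activator, stood at -0.02 ± 0.16, and Foxm1, the factor of G2 and mitosis genes, at 0.28 ± 0.16. Without Vehicle-sham 2 E2f1 changed sign, to 0.13 ± 0.17, and Foxm1 came to 0.15 ± 0.14. None of these 5 passed, and their edgeR adjusted p ran from 0.271 for Foxm1 to 0.95 for E2f1. Exons of Ccne2 share 1602 of 3836 bases with Ints8 on the opposite strand, Cdk2 shares 146 with LOC120093528 and Foxm1 shares 131 with Tex52 on its own strand. Among other members, Tyms shares 116 bases with Enosf1, Cdk4 11 with Tspan31 and Nusap1 9 with Oip5, each on the opposite strand. The strand setting of the counting is not given in the sources used here. Reads of all these genes may therefore include reads of their partners.

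The MCM genes encode the ring of 6 subunits that unwinds DNA at the replication fork. Mcm2 (chromosome 4, 121346434 to 121360962) had the smallest p of the 34 members both in the test for any difference among the 5 groups (edgeR adjusted p = 0.326) and in the CCI average over sham. In Vehicle-sham Mcm2 was at 3.24, 4.1, 2.37, 4.01 and 3.54 CPM in libraries 1 to 5, and in Vehicle-CCI at 5.33, 5.84, 3.45, 5.57 and 5.15 CPM. TD-CCI had 6.02, 5, 4.96, 7.16 and 6.14 CPM, TCF-CCI 5.43, 2.82, 6.76, 3.91 and 3.85 CPM and TNF-CCI 7.39, 3.9, 5.55, 4.81 and 6.89 CPM. Of 20 CCI libraries 15 exceeded all 5 sham libraries and none lay below them, while 1 Vehicle-CCI, 3 TCF-CCI and 1 TNF-CCI library lay within the sham range. The log2 fold change was 0.61 ± 0.19 with an edgeR adjusted p of 0.0507, and 0.71 ± 0.20 with an adjusted p of 0.0929 without Vehicle-sham 2. In TD-CCI over sham the libraries did not overlap and Mcm2 was 0.76 ± 0.23 higher on the log2 scale (edgeR adjusted p = 0.165). In that comparison 3.23% of all genes tested had no overlap.

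Mcm3 (chromosome 9, 23219169 to 23237314) had the larger estimate and the wider spread. In Vehicle-sham Mcm3 was at 1.59, 0.512, 0.827, 1.37 and 2 CPM in libraries 1 to 5, and in Vehicle-CCI at 2.89, 4.32, 1.04, 1.5 and 1.72 CPM. TD-CCI had 2.95, 2.25, 1.67, 1.92 and 2.29 CPM, TCF-CCI 2.62, 1.34, 2.39, 1.67 and 1.49 CPM and TNF-CCI 3.71, 1.85, 1.47, 2.59 and 3.73 CPM. The 2 lowest values were Vehicle-sham 2 and 3, and 10 of 20 CCI libraries exceeded all 5 sham libraries. Its log2 fold change was 0.82 ± 0.31 (edgeR adjusted p = 0.0988), and 0.66 ± 0.30 without Vehicle-sham 2. Mcm5 went from 0.25 ± 0.37 to 0.91 ± 0.36 and Mcm6 from 0.22 ± 0.23 to 0.44 ± 0.24 when that library was left out, since it was the highest sham library of both. Mcm4 and Mcm7 stood at -0.12 ± 0.09 and -0.04 ± 0.13, and without that library at -0.16 ± 0.08 and 0.17 ± 0.11. Of the 6 subunits, 4 estimates were above 0 and 2 below.

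None of the 3 genes of DNA synthesis passed, and their estimates lay between -0.07 and -0.01 on the log2 scale. Pcna (chromosome 3, 119499039 to 119502911) is loaded at every replication fork and at sites of DNA repair. In Vehicle-sham Pcna was at 32.7, 40.6, 48, 46.7 and 38.3 CPM in libraries 1 to 5, and in Vehicle-CCI at 35.8, 46.1, 32.6, 42.9 and 41.1 CPM. TD-CCI had 31, 44.7, 29.7, 50.9 and 35.6 CPM, TCF-CCI 35.4, 29.9, 34.2, 50.9 and 30.5 CPM and TNF-CCI 47.7, 38.3, 42.2, 47.5 and 41.9 CPM. All groups overlapped, with a mean of 41.3 ± 6.27 CPM (SD, n = 5) in sham and 39.5 ± 7.08 CPM (SD, n = 20) in CCI. Its log2 fold change was -0.07 ± 0.13 (edgeR adjusted p = 0.781), and -0.05 ± 0.14 without Vehicle-sham 2. Rrm2, the small subunit of ribonucleotide reductase, stood at -0.04 ± 0.24, and Tyms, thymidylate synthase, at -0.01 ± 0.13. Without that library Rrm2 came to -0.16 ± 0.24 and Tyms to -0.03 ± 0.14. Tyms held 1 high library, TNF-CCI 1 at 44.9 CPM, where the others ran from 16.9 to 29.6 CPM.

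**Figure D2:**
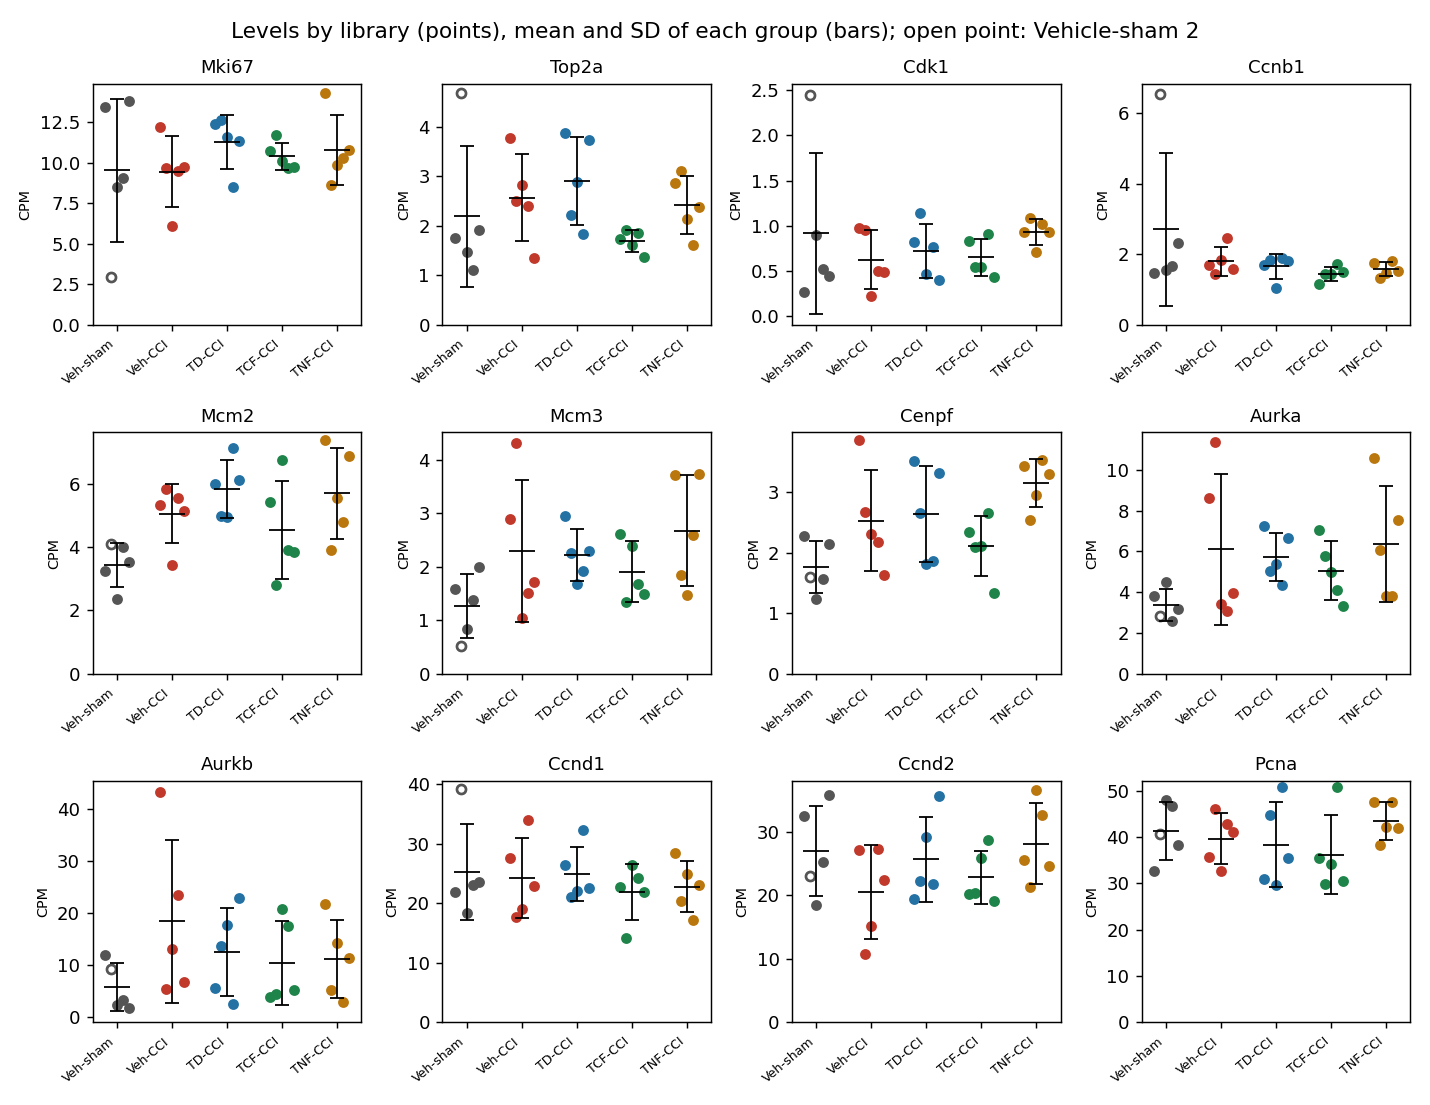
CPM of 12 of the genes in each library, by group, with the group mean and SD as black bars and Vehicle-sham 2 as an open point. For Ccnb1, Cdk1, Top2a and Ccnd1 the open point lies above every other library, and for Mki67 and Mcm3 it lies below every other library.

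Of the 4 cyclins and kinase genes of S, G2 and M phase, 1 estimate was above 0 and 3 below, and none passed. Ccnb1 (cyclin B1, chromosome 2, 31912190 to 31921163) binds Cdk1 to start mitosis. In Vehicle-sham Ccnb1 was at 1.46, 6.54, 1.54, 1.66 and 2.33 CPM in libraries 1 to 5, and in Vehicle-CCI at 1.68, 1.44, 1.83, 2.47 and 1.57 CPM. TD-CCI had 1.69, 1.84, 1.03, 1.89 and 1.82 CPM, TCF-CCI 1.16, 1.43, 1.43, 1.73 and 1.49 CPM and TNF-CCI 1.76, 1.32, 1.47, 1.82 and 1.53 CPM. Vehicle-sham 2 was at 6.54 CPM and the other 24 libraries lay between 1.03 and 2.47 CPM. With all libraries the log2 fold change was -0.72 ± 0.24 (edgeR adjusted p = 0.0656), and without that library it was -0.09 ± 0.17 (adjusted p = 0.859). Cdk1 itself (chromosome 20, 19266226 to 19281417) was among the lowest members. In Vehicle-sham Cdk1 was at 0.265, 2.45, 0.902, 0.522 and 0.442 CPM in libraries 1 to 5, and in Vehicle-CCI at 0.971, 0.949, 0.221, 0.5 and 0.494 CPM. TD-CCI had 0.816, 1.14, 0.47, 0.768 and 0.398 CPM, TCF-CCI 0.828, 0.546, 0.542, 0.908 and 0.432 CPM and TNF-CCI 0.927, 1.09, 0.711, 1.02 and 0.928 CPM. Again Vehicle-sham 2 was the highest of all, and the other groups overlapped. The log2 fold change of Cdk1 was -0.28 ± 0.36 with all libraries and 0.48 ± 0.33 without that one, a change of sign. Ccna2 (cyclin A2) and Ccnb2 (cyclin B2) stood at 0.15 ± 0.19 and -0.04 ± 0.23. Without Vehicle-sham 2 Ccna2 came to 0.04 ± 0.20, and Ccnb2 changed sign, to 0.13 ± 0.25.

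Of the 7 genes of mitotic kinases, checkpoint and cyclin destruction, 4 estimates were above 0 and 3 below. Aurka (chromosome 3, 161128309 to 161144524), which matures the spindle poles, had one of the larger estimates but did not pass. In Vehicle-sham Aurka was at 3.8, 2.85, 4.51, 2.58 and 3.18 CPM in libraries 1 to 5, and in Vehicle-CCI at 8.63, 11.4, 3.42, 3.07 and 3.98 CPM. TD-CCI had 7.23, 5.03, 5.4, 4.36 and 6.67 CPM, TCF-CCI 7.05, 5.8, 4.99, 4.09 and 3.32 CPM and TNF-CCI 10.6, 6.09, 3.82, 3.79 and 7.55 CPM. Of 20 CCI libraries 12 exceeded all 5 sham libraries and none lay below them, and Vehicle-CCI held both very high and sham-like values. The log2 fold change was 0.77 ± 0.28 (edgeR adjusted p = 0.0866), and 0.74 ± 0.31 without Vehicle-sham 2. Aurka shares 92 exon bases with Fam210b on the opposite strand. Aurkb (chromosome 10, 53744290 to 53750831), the kinase that corrects chromosome attachment, spread more than any other member. In Vehicle-sham Aurkb was at 12, 9.28, 2.22, 3.26 and 1.77 CPM in libraries 1 to 5, and in Vehicle-CCI at 43.2, 5.38, 13.1, 23.4 and 6.78 CPM. TD-CCI had 5.66, 13.7, 17.7, 2.5 and 22.8 CPM, TCF-CCI 3.81, 4.46, 20.8, 17.4 and 5.28 CPM and TNF-CCI 21.7, 5.19, 14.3, 2.89 and 11.4 CPM. Each CCI group held libraries under 7 CPM and libraries above 17 CPM, and 10 of 20 CCI libraries exceeded all 5 sham libraries. Its log2 fold change of 1.16 ± 0.58 was the largest of the 34 members in the CCI average over sham, its edgeR adjusted p was 0.215, and without Vehicle-sham 2 it was 1.43 ± 0.66. The values of Aurka and Aurkb were weakly related over the 25 libraries, at a Spearman rho of 0.23.

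Plk1, the polo kinase of mitotic entry, stood at 0.39 ± 0.26 and at 0.15 ± 0.17 without Vehicle-sham 2, where it had 0.512 CPM against 2.96 to 6.26 CPM elsewhere. The checkpoint kinases Bub1 and Bub1b went from -0.13 ± 0.23 to 0.19 ± 0.23 and from -0.01 ± 0.34 to 0.51 ± 0.32. Birc5 (survivin), which holds Aurkb on chromosomes, stood at 0.07 ± 0.19, and at 0.20 ± 0.20 without that library. Ube2c, which marks mitotic cyclins for destruction, stood at -0.28 ± 0.25 with all libraries and at -0.03 ± 0.26 without that one. None of these 5 passed, with edgeR adjusted p from 0.375 for Plk1 to 0.987 for Bub1b.

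Of the 6 genes of spindle, kinetochore and chromosome proteins, 4 estimates were above 0 and 2 below. Cenpf (chromosome 13, 101184127 to 101229714), a kinetochore protein of G2 and mitosis, had the smallest p in TNF-CCI over sham. In Vehicle-sham Cenpf was at 2.28, 1.59, 1.24, 1.56 and 2.15 CPM in libraries 1 to 5, and in Vehicle-CCI at 3.86, 2.68, 2.31, 2.17 and 1.63 CPM. TD-CCI had 3.52, 2.66, 1.82, 1.87 and 3.32 CPM, TCF-CCI 2.35, 2.09, 2.11, 2.66 and 1.33 CPM and TNF-CCI 3.44, 2.55, 2.95, 3.53 and 3.3 CPM. All 5 TNF-CCI libraries lay above all 5 sham libraries, a pattern held by 3.51% of all genes tested in that comparison. The log2 fold change in TNF-CCI over sham was 0.83 ± 0.25 (edgeR adjusted p = 0.0642), and in the CCI average it was 0.54 ± 0.20 (adjusted p = 0.101). Without Vehicle-sham 2 these were 0.82 ± 0.26 and 0.54 ± 0.22. In TCF-CCI it was 0.25 ± 0.25, and in the direct comparison TNF-CCI over TCF-CCI it was 0.58 ± 0.25 (edgeR adjusted p = 0.953).

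Mki67 and Top2a, the usual markers of cycling cells, did not pass in any comparison. Mki67 (chromosome 1, 190496319 to 190522983) coats mitotic chromosomes. In Vehicle-sham Mki67 was at 13.4, 2.96, 8.49, 9.03 and 13.8 CPM in libraries 1 to 5, and in Vehicle-CCI at 12.2, 9.67, 6.07, 9.47 and 9.74 CPM. TD-CCI had 12.4, 12.6, 11.6, 8.48 and 11.3 CPM, TCF-CCI 10.7, 11.7, 10.1, 9.66 and 9.73 CPM and TNF-CCI 14.3, 8.61, 9.84, 10.3 and 10.8 CPM. Vehicle-sham held both the lowest library of all, Vehicle-sham 2, and values as high as in any group but for 1 TNF-CCI library. The mean was 9.53 ± 4.4 CPM (SD, n = 5) in sham and 10.5 ± 1.78 CPM (SD, n = 20) in CCI. The log2 fold change was 0.13 ± 0.20 (edgeR adjusted p = 0.739), and -0.07 ± 0.15 without Vehicle-sham 2. Top2a (chromosome 10, 83946186 to 83975694) untangles DNA before chromosomes part. In Vehicle-sham Top2a was at 1.75, 4.67, 1.47, 1.11 and 1.92 CPM in libraries 1 to 5, and in Vehicle-CCI at 3.77, 2.5, 2.81, 2.4 and 1.34 CPM. TD-CCI had 3.86, 2.22, 2.88, 1.84 and 3.72 CPM, TCF-CCI 1.72, 1.91, 1.6, 1.85 and 1.36 CPM and TNF-CCI 2.85, 3.11, 2.13, 1.61 and 2.37 CPM. Apart from Vehicle-sham 2, the sham libraries ended at 1.92 CPM and 12 of 20 CCI libraries lay above them. With all libraries Top2a stood at 0.13 ± 0.26 (edgeR adjusted p = 0.797), and without Vehicle-sham 2 at 0.61 ± 0.23 (adjusted p = 0.198).

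Tpx2 (a spindle assembly factor), Nusap1 (a microtubule bundler) and Kif11 (the motor that pushes spindle poles apart) had their highest level in the same sham library. Vehicle-sham 2 held 4.95 CPM of Tpx2, 5.35 CPM of Nusap1 and 5.18 CPM of Kif11, where no other library reached those levels. Without it the log2 fold change of Tpx2 went from 0.14 ± 0.26 to 0.70 ± 0.22, with 17 of 20 CCI libraries above the other 4 sham libraries. Nusap1 went from -0.46 ± 0.26 to 0.24 ± 0.19 and Kif11 from -0.59 ± 0.27 to -0.02 ± 0.24. Without that library no edgeR adjusted p of these 3 passed, and the smallest was 0.13 for Tpx2.

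**Figure D3:**
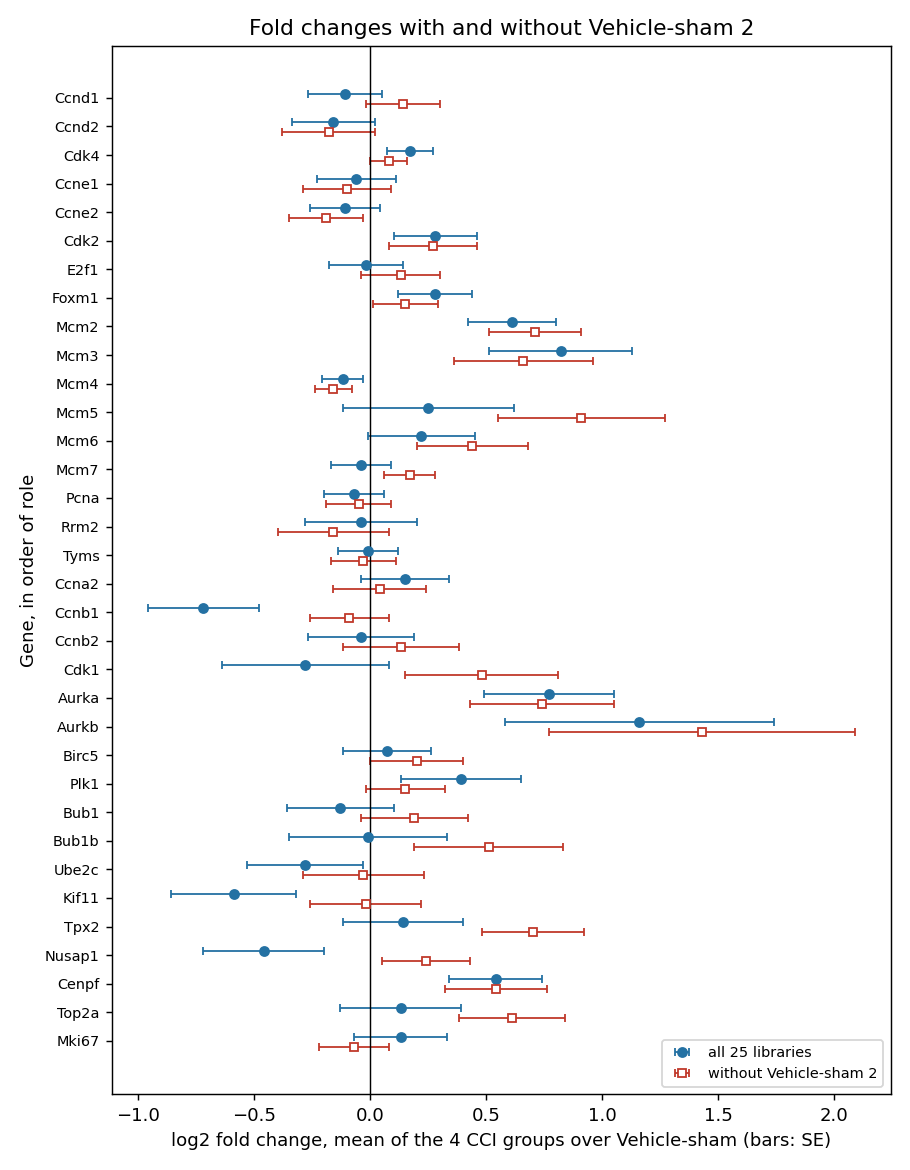
Log2 fold change of the 34 genes, mean of the 4 CCI groups over Vehicle-sham, with all 25 libraries (filled circles) and without Vehicle-sham 2 (open squares); bars are SE. Ccnb1 moves from -0.72 to -0.09 and Tpx2 from 0.14 to 0.70, while Mcm2, Aurka and Cenpf move by 0.10 or less.

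Counted over the list, 0 of 34 members passed in the CCI average over sham, where 5.92% of all genes tested passed. At an unadjusted p under 0.05 there were 6 of 34 members (Mcm2, Ccnb1, Aurka, Mcm3, Cenpf and Kif11), a share of 17.6% against 24.7% of all genes. DESeq2 on the same counts called 4 of 34 (Mcm2, Ccnb1, Aurka and Mcm3) where it called 11.5% of all genes, and limma voom with sample weights called 0 of 34 where it called 6.17%. Of the 34 estimates 16 were above 0, with a median of -0.01 on the log2 scale, and over all genes 51.2% were above 0, with a median of 0.01. Not 1 member was free of overlap between the 20 CCI and the 5 sham libraries, as were 0.0807% of all genes. Without Vehicle-sham 2, 23 of 34 estimates were above 0 with a median of 0.15, and 9 of 34 changed sign. Over all genes that fit gave a median of 0.00 with 50.5% above 0, and 8 of 34 members against 15% of all genes had an unadjusted p under 0.05. Of the 17 members of S, G2 and M phase, 9 estimates were above 0 with all libraries and 13 without that one. In the same step the genes of the whole table that passed went from 1248 to 14.

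Each injured group was also set against the same 5 sham libraries, which the 4 comparisons share. In Vehicle-CCI over sham, injury without a supplement, edgeR found that 0 of 34 members and 0% of all genes passed, and 4 of 34 had an unadjusted p under 0.05 against 12.7% of all genes. Aurka (0.85 ± 0.34, edgeR adjusted p = 0.293) and Aurkb (1.69 ± 0.69, adjusted p = 0.314) had the smallest p. Without Vehicle-sham 2 they came to 0.81 ± 0.36 and 1.95 ± 0.76. No member was free of overlap there, against 0.783% of all genes. In TD-CCI over sham, where 0% of all genes passed, 5 of 34 members against 16.5% of all genes had an unadjusted p under 0.05, led by Mcm2 and by Cenpf at 0.57 ± 0.25.

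In TCF-CCI over sham 0.0142% of all genes passed, and 1 of 34 members, Ccnb1 at -0.88 ± 0.32, against 18% of all genes had an unadjusted p under 0.05. Kif11 came next at -0.74 ± 0.36 (edgeR adjusted p = 0.278). Without Vehicle-sham 2 these became -0.23 ± 0.21 and -0.16 ± 0.30. No member was free of overlap, against 3.55% of all genes. In TNF-CCI over sham 2.57% of all genes passed, and 5 of 34 members against 20% of all genes had an unadjusted p under 0.05. DESeq2 called 3 of 34 (Cenpf, Mcm2 and Mcm3) against 6.91% of all genes, and limma voom called 1 of 34 (Tpx2) against 4.6%. In Vehicle-CCI, TD-CCI and TCF-CCI over sham both tools called 0 of 34, where DESeq2 called 1.17%, 1.25% and 1.07% of all genes and limma voom 0%, 0.00949% and 1.84%. By edgeR, next to Cenpf stood Mcm2 at 0.73 ± 0.23 (edgeR adjusted p = 0.074) and Mcm3 at 1.06 ± 0.37. Without Vehicle-sham 2, 9 of 34 members against 15.2% of all genes had an unadjusted p under 0.05, none passed, and Tpx2 stood at 0.82 ± 0.25. In the test for any difference among the 5 groups 0% of all genes passed, and 2 of 34 members (Mcm2 and Cenpf) against 11.7% of all genes had an unadjusted p under 0.05.

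The authors' deposited tables of each CCI group over the control gave 3 calls among the members at their adjusted p of 0.05 or less. In TD-CCI the authors' deposited table had Mcm2 at a log2 fold change of 0.76 (adjusted p = 0.0147) and Aurka at 0.75 (adjusted p = 0.0363, both DESeq2), where 2.34% of all genes passed. In TNF-CCI the authors' deposited table had Cenpf at 0.83 (DESeq2 adjusted p = 0.0137), where 3.53% passed. In Vehicle-CCI and TCF-CCI the authors' deposited tables had 0 of 34 members, against 0.326% and 2.24% of all genes.

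The supplements were then compared with vehicle in injured animals, and with each other, to see whether any changed the response. No member passed in these 6 comparisons, nor did any gene (0% in each). Over Vehicle-CCI, the members of smallest p were Rrm2 in TD-CCI (0.57 ± 0.30) and Top2a in TCF-CCI (-0.60 ± 0.32), neither with an unadjusted p under 0.05, and Tyms in TNF-CCI (0.42 ± 0.16, edgeR adjusted p = 1). Members at an unadjusted p under 0.05 were 0, 0 and 1 of 34 for TD-CCI, TCF-CCI and TNF-CCI over Vehicle-CCI, where 1.75%, 1.44% and 3.46% of all genes were. The second members were Ube2c (0.54 ± 0.32), E2f1 (-0.28 ± 0.21) and Ccnd2 (0.45 ± 0.23). Over 34 alternatives the Tyms estimate in TNF-CCI over Vehicle-CCI ran from 0.19 to 0.51 and kept its sign. Its highest library was TNF-CCI 1, at 44.9 CPM.

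Between the supplements, most member estimates were lower in TCF-CCI than in the other two groups, with no single gene passing. TNF-CCI stood above TCF-CCI in 31 of 34 estimates, with a median of 0.13 (all genes 52.9% and 0.02), and 2 of 34 members (Cenpf and Tyms) against 5.12% of all genes had an unadjusted p under 0.05. TD-CCI stood above TCF-CCI in 29 of 34, with a median of 0.17 (all genes 52% and 0.01), and 1 of 34 against 1.91% had an unadjusted p under 0.05. That member was Top2a at 0.78 ± 0.32 (edgeR adjusted p = 1), followed by Mcm6 at 0.49 ± 0.28. Top2a in TCF-CCI ran from 1.36 to 1.91 CPM and in TD-CCI from 1.84 to 3.86 CPM, which overlap. TNF-CCI over TD-CCI split 17 to 17, with 0 of 34 against 2.45% of all genes at an unadjusted p under 0.05, and Tyms (0.21 ± 0.16) and Pcna (0.18 ± 0.16) had the smallest p. Both counts over TCF-CCI share its 5 libraries, and members share libraries, so these counts are descriptions and were not tested.

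**Figure D4:**
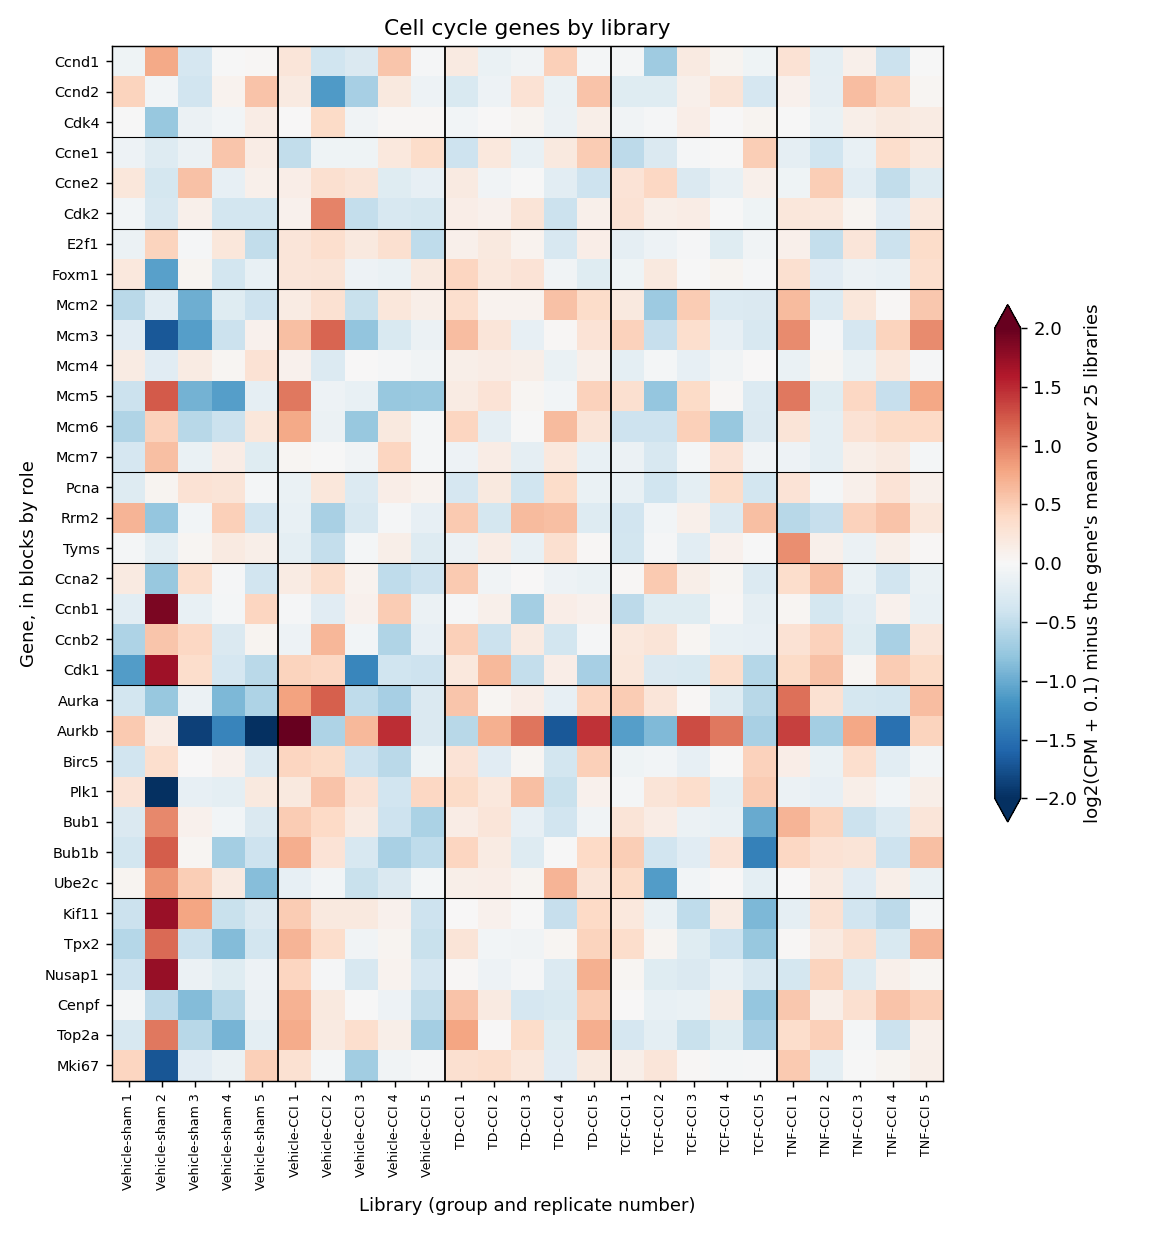
Level of each of the 34 genes (rows, in blocks by role) in each of the 25 libraries (columns, by group), as log2(CPM + 0.1) minus the gene's mean over the libraries. The column of Vehicle-sham 2 is dark red for Ccnb1, Cdk1, Kif11 and Nusap1 and dark blue for Mki67, Plk1 and Mcm3, and Aurkb varies within every group.

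Of 82 other cell cycle genes, 81 were tested, and 2 passed in the CCI average over sham, a share of 2.47% where 5.92% of all genes passed. Cdk6, the second kinase of D cyclins, rose by 0.92 ± 0.24 on the log2 scale (edgeR adjusted p = 0.0316). It was at 10.6, 4.04, 9.21, 6.68 and 9.37 CPM in the sham libraries, with a CCI median of 15.7 CPM (lowest 6.64, highest 23.1), and 17 of 20 CCI libraries exceeded all 5 sham libraries. Wee1, the kinase that holds Cdk1 inactive, fell by 0.31 ± 0.09 (edgeR adjusted p = 0.049), from 25.6, 29.8, 29.5, 29.2 and 31.3 CPM in sham to a CCI median of 23.5 CPM, and 15 of 20 CCI libraries lay below every sham library. Wee1 lost its call in 21 of 33 alternatives, and Cdk6 also lost it without Vehicle-sham 4. Without Vehicle-sham 2 both calls were lost, with Cdk6 at 0.79 (edgeR adjusted p = 0.122) and Wee1 at -0.27 (adjusted p = 0.187). Tacc3, a spindle protein, stood at 0.74 ± 0.23 (edgeR adjusted p = 0.053), with 17 of 20 CCI libraries above every sham library, and at 0.74 ± 0.25 without Vehicle-sham 2. Cdkn1a (p21), the CDK inhibitor that p53 switches on, stood at 0.24 ± 0.23 (adjusted p = 0.559, edgeR). By group of genes, 1 of 13 RB and E2F pathway genes (Cdk6), 1 of 37 genes of mitosis (Wee1), 0 of 25 of origin licensing and replication and 0 of 6 CDK inhibitors passed.

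Whether the members rise and fall together was asked over the 25 libraries. Over all 561 pairs of members the median Spearman rho of log2 CPM was 0.10 (-0.66 to 0.83, 350 pairs above 0). Over the 136 pairs of S, G2 and M phase members it was 0.24 (-0.51 to 0.78, 109 above 0). Over the 15 pairs of MCM genes it was 0.33 (-0.45 to 0.69, 9 above 0). A median over pairs of all genes was not computed. Pairs of the last step of the cycle that tracked each other were Bub1b with Tpx2 (rho 0.78) and Tpx2 with Top2a (0.74), while Ccnb1 with its partner Cdk1 was at 0.07. The highest pair was Cdk2 with Aurka (0.83), and it was 0.84 without Vehicle-sham 2. Libraries share depth and the mix of cells, so these are descriptions.

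Mki67, the marker most used for dividing cells, was also set against each other member. Its rho with Top2a was 0.15 (Pearson r -0.23), with Cdk1 -0.08 (r -0.35), with Plk1 0.42 (r 0.78) and with Foxm1 0.52 (r 0.78). Over 41 relations of Mki67 (33 members and 8 marker genes), none passed with Spearman's rho, where the smallest permutation p was 0.00742 for Mcm3, adjusted p = 0.182. With Pearson's r 5 members passed: Foxm1 and Mcm3 (r 0.69), Cdk4 (r 0.73) and Plk1 with a positive r, and Mcm7 with a negative one (r -0.60). The share of all genes related to Mki67 as closely was not computed. Among the 10 genes most alike to Mki67 by rho (0.78 to 0.87), 0 were members or other cell cycle genes listed here. Those lists hold 34 members and 81 others of 21064 genes tested, so their share alone would give few of the 10 places, if any. Leaving out Vehicle-sham 2 and Vehicle-CCI 3, the libraries farthest from the median of Mki67, brought Plk1 to r 0.38, Foxm1 to 0.48, Mcm3 to 0.40, Cdk4 to 0.15 and Mcm7 to -0.43. The relations of these 5 members thus rest in part on those libraries.

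Marker genes of single cell types moved with some members. Over 306 relations of 34 members with 9 marker genes, chosen after earlier values had been seen, the closest was Aurka with Snap25, a synaptic protein of neurons (rho -0.89, r -0.88, permutation p = 1e-05, the smallest that 100000 permutations can give, adjusted p = 0.00051). Leaving out the 2 libraries farthest from the median gave r -0.84, and centring on the group means gave rho -0.84. Cdk2 (rho -0.84, r -0.80) and Ccna2 (rho -0.77, r -0.79) were also lower where Snap25 was higher, at permutation p = 1e-05 and 3e-05 and adjusted p = 0.00051 and 0.00102. Mcm2 went with Vim, an intermediate filament of reactive astrocytes (rho 0.82, r 0.84, adjusted permutation p = 0.00051), with Pecam1 of endothelium (rho 0.81, r 0.78), with Foxj1 of ciliated ependyma (rho 0.80, r 0.85) and with Gfap of astrocytes (rho 0.76, r 0.80). Mcm3 went with Gfap (rho 0.77, r 0.81) and with Pecam1 (rho 0.71, r 0.70). Cdk1 with Aif1, a marker of microglia, had rho 0.70 (r 0.56, permutation p = 0.00015, adjusted p = 0.00323) and rho 0.81 without Vehicle-sham 2. Over these 9 relations other than that of Aurka, the adjusted permutation p was 0.00323 or less, and r without the 2 farthest libraries was -0.81 and -0.74 for Cdk2 and Ccna2, 0.75 to 0.80 for Mcm2, 0.65 to 0.77 for Mcm3 and 0.48 for Cdk1. Relations over all 25 libraries include differences between groups. Members that passed were 9 of 34 with Vim, 5 with Gfap, 4 with Pecam1, 4 with Foxj1 and 6 with Aif1, all positive. With Snap25 7 passed, 2 positive and 5 negative. With Pdgfra, of oligodendrocyte precursors, 4 passed, 1 positive and 3 negative. With Sox2 and Dcx, of neural progenitors and neuroblasts, 3 (positive) and 1 (negative) passed. Centred on the group means, the counts with Vim, Gfap, Pecam1, Foxj1, Aif1 and Snap25 were 2, 1, 3, 2, 4 and 6, so Mcm2 and Mcm3 did not both pass with Gfap there. With Pdgfra, Sox2 and Dcx they were 3, 1 and 0. The shares over all genes were not computed. The part of cell mix in the values of Mcm2, Mcm3 and Aurka was not tested.

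Of the 9 markers, 3 passed in the CCI average over sham, where 5.92% of all genes passed. Vim rose by 2.16 ± 0.48 on the log2 scale (edgeR adjusted p = 0.0228), Gfap by 1.33 ± 0.34 (0.0289) and Aif1 by 0.79 ± 0.22 (0.0373), while Snap25 stood at -0.44 ± 0.18 (0.132), Pecam1 at 0.54 ± 0.22 (0.133) and Foxj1 at 1.08 ± 0.39 (0.0892). Without Vehicle-sham 2 none of the 9 passed, with Vim at 2.39 ± 0.55 (edgeR adjusted p = 0.06), Gfap at 1.25 ± 0.37 (0.109) and Aif1 at 0.92 ± 0.24 (0.0786). Of the 8 astrocyte markers, 2 passed (Vim and Gfap), and the others included Slc1a3 at -0.02, Gja1 at -0.03 and Aqp4 at 0.17. The 8 summed to 4400 to 8920 CPM in sham and to 4600 to 13600 in the CCI groups. The 8920 CPM was Vehicle-sham 2, and the next sham library, Vehicle-sham 5, was at 5670 CPM. Of the 8 microglial markers, 5 passed, and 0 without Vehicle-sham 2 (smallest edgeR adjusted p = 0.07, for Csf1r). The estimate of Csf1r went from 1.40 ± 0.30 to 1.28 ± 0.31 in that step. The 8 microglial markers summed to 109 to 159 CPM in sham and to 165 to 464 in Vehicle-CCI, 228 to 336 in TD-CCI, 140 to 331 in TCF-CCI and 238 to 457 in TNF-CCI. The 10 markers of neural progenitors and neuroblasts summed to 159 to 325 CPM in sham and to 166 to 226 in the 4 CCI groups. The 325 CPM was Vehicle-sham 2, and the next sham library, Vehicle-sham 3, was at 197 CPM. Of the 10 markers, 1 passed as higher and 2 as lower. Nes stood at 1.06 ± 0.28 (edgeR adjusted p = 0.0337), Neurod1 at -1.44 ± 0.28 (0.0222) and Eomes, a factor of intermediate progenitors, at -1.84 ± 0.53 (0.0418). Without Vehicle-sham 2 none of these 3 passed. Nes came to 0.90 ± 0.28 (edgeR adjusted p = 0.128), Neurod1 to -0.64 ± 0.22 (0.17) and Eomes to -0.56 ± 0.53 (0.665). The 7 markers of oligodendrocyte precursors, which also divide in the adult, summed to 165 to 238 CPM in sham and to 158 to 357 in the CCI groups. The 7 endothelial markers summed to 48.8 to 71.2 CPM in sham and to 47 to 113 in CCI. The lowest sham sums of these last lists, 165 and 48.8 CPM, were Vehicle-sham 2.

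**Figure D5:**
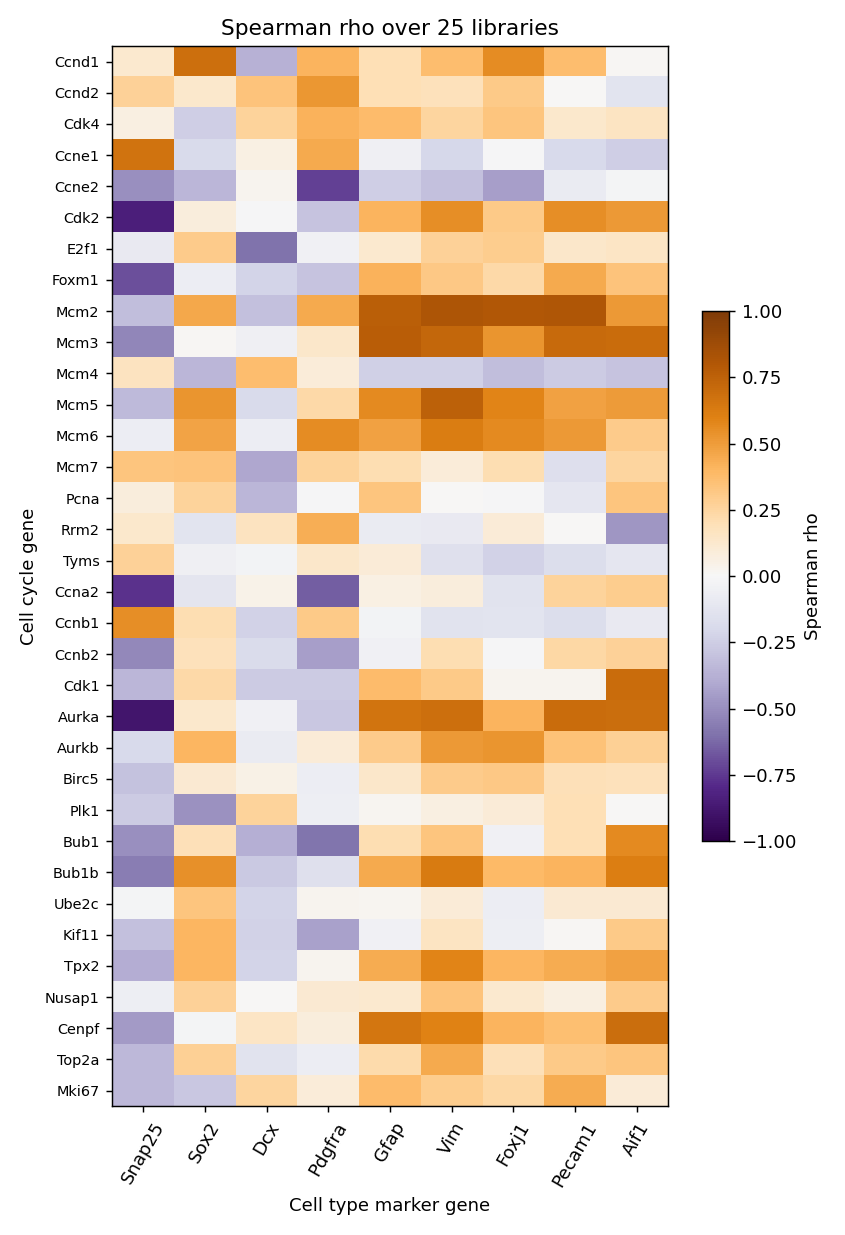
Spearman rho over 25 libraries between each of the 34 genes (rows) and 9 marker genes (columns), from -1 (purple) to 1 (orange). The darkest cells are Aurka and Cdk2 with Snap25 (-0.89 and -0.84) and Mcm2 with Vim (0.82).

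Of the 21064 genes tested, the cell cycle lists hold 34 members and 81 others. That share alone would give them few places among the most alike genes. The genes whose levels ran most like a member's over the 25 libraries were for the most part outside those lists. Of 340 places, the 10 most alike genes of each of 34 members, 13 were taken by genes of those lists, in 7 members. For Aurka they were Tnfrsf1b (rho 0.97), Fermt3 (0.96) and Fhl3 (0.96), and for Mcm3 Pld4 (0.94), Csf1r (0.90) and Bid (0.90). For Cenpf they were Adgre1 (0.86), Sla (0.85) and Tlr13 (0.84), and for Mcm2 Rrbp1 (0.90), Ctsa (0.89) and Aebp1 (0.88). Tnfrsf1b, Fermt3, Csf1r, Adgre1 and Tlr13 are known from blood and microglial cells. For Mki67 they were Prr14l (0.87), Srcap (0.83) and Akap13 (0.81), and for Ccnb1 Eif3a (0.87), Ncoa4 (0.85) and Fbl (0.84). Genes of the lists appeared for Top2a (Kif23, Cdkn2b and Tpx2), Tpx2 (Kif23 and Racgap1), Mcm5 (Bub1b and Dlgap5), Cdk1 (Nuf2 and Gins1), Nusap1 (Tpx2 and Pttg1), Kif11 (Smc4) and Ccnb1 (Rrm1). The closest of these was the kinetochore gene Nuf2 with Cdk1 (0.82). For Aurkb they were Map10 (0.76), Dnah2 (0.70) and Ccdc187 (0.70), of which Dnah2 is an axonemal dynein of cilia.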

How the data were processed

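Per the labels, polyA RNA was extracted with a fibrous tissue kit and made into libraries with a TECAN mRNA kit. The authors deposited whole read counts per gene, with exon positions on mRatBN7.2. Per the submitters' processing notes the tools were STAR, featureCounts, Salmon and DESeq2; no version is named. The authors' 4 deposited tables hold log2 fold changes and p-values over the control, per the file headers. Genes with empty cells, 7 in all, were left out. No pair of libraries matched within sampling noise: within groups, chi-square over its degrees of freedom was 23.7 to 682 for each pair, where counting error alone gives about 1.

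All 25 libraries entered 1 fit with edgeR 4.0.16 in R 4.3.3 (TMM factors, the filterByExpr filter by group, robust quasi-likelihood F test), with Benjamini-Hochberg adjustment over the 21064 genes tested and a threshold of 0.05. Fold changes are log2, first-named group over the second, with SE. Relations used log2 CPM with a prior count of 2 and two-sided tests of 100000 permutations in Python 3.11.15, adjusted over the family named. The scripts were tested on simulated data.

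The members and gene lists were chosen with earlier results of these data known. The text names any member; it gives all libraries for 8 fixed genes (Mki67, Top2a, Cdk1, Ccnd1, Ccnd2, Pcna, Mcm2 and Ccnb1) and the 3 of smallest p in the test over 5 groups, the 2 of smallest p in each comparison, and of other cell cycle genes those that passed, the 3 of smallest p and Cdkn1a. Per-library values of Mcm3, Aurka and Aurkb, and the most alike genes, were added after their values were seen. Alternatives were DESeq2 size factors, no filter, a filter at 1 CPM, DESeq2 1.42.0, limma 3.58.1 voom with sample weights, a replicate block, the mitochondrial rRNA share as a covariate, only the groups compared, and leaving out libraries.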

Additional observations from a re-analysis of the deposited data

Results flagged for a closer look

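Of 60 sets of 5 libraries (12 genes in 5 groups), 6 held 1 library far from the other 4, where chance gives about 1 in 20. Vehicle-sham 2 was the library in 3 of them: Top2a was at 4.67 CPM there and at 1.92 CPM in the nearest sham library, Ccnd1 at 39.2 CPM against 23.6 CPM, and Ccnb1 at 6.54 CPM against 2.33 CPM. In TCF-CCI 4 Pcna was at 50.9 CPM, against 35.4 CPM in the nearest library of its group. In Vehicle-CCI 3 Mcm2 was at 3.45 CPM, below the next library at 5.15 CPM. In TD-CCI 3 Ccnb1 was at 1.03 CPM, below the next at 1.69 CPM.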

How the results depend on the processing

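The count of members that passed was 0 in all 12 comparisons, and it stayed at 0 under every alternative run except in 2 comparisons with sham and for Mki67. For the mean of the 4 CCI groups it was 1 of 34 without the filter (6.33% of all genes) and 1 of 32 with a filter at 1 CPM (8% of all genes), Mcm2 in both, and 4 with DESeq2 (Aurka, Ccnb1, Mcm2 and Mcm3; 11.5%); leaving out single libraries gave 0 to 1 (Ccnb1 without Vehicle-sham 1 or Vehicle-CCI 4, Mcm2 without Vehicle-CCI 3, TCF-CCI 2, TNF-CCI 2 or TNF-CCI 4), where 5.3% to 9.92% of all genes passed. For TNF-CCI it was 3 with DESeq2 (Cenpf, Mcm2 and Mcm3; 6.91% of all genes), 1 with voom (Tpx2, 4.6%) and 1 with the replicate block (Cenpf, 5.65%); leaving out single libraries gave 0 to 2 (Cenpf without Vehicle-sham 1 or 5, Cenpf and Mcm2 without TNF-CCI 2), where 4.36% to 7.35% of all genes passed. The replicate block changed no other count of members. Deviations of same-numbered libraries correlated at a median of 0.12 (-0.32 to 0.44, 27 of 50 pairs above 0.1), and of differently numbered ones at -0.02 (45 of 200 above 0.1). Since not every same-numbered pair was above 0.1, the main fit did not pair the libraries by number. That rule cannot exclude a partial pairing, so the replicate block is given as an alternative. Members related to Mki67 numbered 0 with rho, 5 with Pearson's r and 2 centred on group means, and 0 to 1 leaving out single libraries. The share of all genes related to Mki67 was not computed.

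Of 1273 single values over 38 gene and comparison pairs, 24 changed sign. For the mean of the CCI groups, voom gave Ccnd1 0.03, Cdk1 0.51, Kif11 0.17, Mki67 -0.03 and Nusap1 0.16. The mitochondrial rRNA covariate gave Cdk1 0.52, Kif11 0.15, Mki67 -0.10 and Nusap1 0.11. Vehicle-sham 2 and 3 had the highest mitochondrial rRNA shares. Without these together, Ccnd1 was 0.05, Cdk1 0.83, Kif11 0.40, Mki67 -0.19, Nusap1 0.26 and Pcna 0.02. Leaving out single libraries gave Ccnd1 from -0.20 to 0.14, Cdk1 from -0.52 to 0.48, Mki67 from -0.07 to 0.30, Nusap1 from -0.66 to 0.24, Top2a from -0.09 to 0.61 and Tpx2 from -0.07 to 0.70, the lowest value of the last 2 without Vehicle-sham 4. Kif11 in TCF-CCI over sham was 0.02 with voom and 0.25 without Vehicle-sham 2 and 3, and Tyms in TNF-CCI over TD-CCI was -0.02 to 0.29 leaving out single libraries, the lowest without TNF-CCI 1. The Cdk6 call was lost in 4 of 33 alternatives and the Wee1 call in 21 of 33. Causes were not tested.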
